A study of Mus musculus with 12 samples.

Results

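The loci described here are protein-coding loci whose annotated transcripts begin at many separate places. They were chosen from the deposited gene models by 1 rule: a locus belongs to the set if its coding transcripts, those with a protein identifier, fall into 5 or more transcription start site groups (TSS groups). A TSS group holds the transcripts of a locus with more than 1 exon whose first exons begin close together. Of the 22206 loci with a coding transcript, 664 met the rule (2.99%), and they held 3993 TSS groups, 5954 coding transcripts and 5246 protein identifiers. The other coding loci comprised 6444 loci with 2 to 4 TSS groups, 12192 loci with 1, and 2906 loci whose coding transcripts all had a single exon and so carried no TSS group. The rule uses annotation only, and no measured value entered it.

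The models belong to a series of RNA-seq of the nucleus accumbens, the ventral part of the striatum, of C57BL/6 mice labelled as 8 to 10 weeks old, with 12 pools of 3 to 5 animals in 4 groups of 3 pools. Mice of the repeated cocaine group received cocaine at 20 mg/kg by intraperitoneal injection on 7 days, and mice of the acute cocaine group received saline on 6 days and then cocaine at 20 mg/kg on 1 day. Each had a saline group, injected with saline on 7 days. The repeated groups are labelled as taken 24 h after the last injection. The labels give no time for the acute groups, for which the methods of the study also state 24 h. The methods of the study name the J substrain and differ from the labels on age and on the number of animals in a pool. The models are a table of the whole series, and no source states which pools they were made from. Their name can be read as cocaine on 7 days with tissue taken 24 h later, as in the repeated groups. No genetic change is named in the labels, pooling hides the spread between single animals, and the models carry no value for any pool, so that neither the tissue, the read depth nor a difference between groups could be examined. Every value below is a property of the gene models on the mm9 (NCBIM37) build of the mouse genome, read in places against GENCODE M1, an annotation of that build. Such values have no replicates, so no test was run.

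A gene with several promoters can make transcripts that differ only in the 5′ leader, the stretch of RNA before the start codon, or transcripts that begin at another start codon and so encode proteins with different amino ends. In the first case the promoters change where and when the same protein can be made, and in the second they change the protein itself. Both kinds are well known in neurons, in genes such as Bdnf, which encodes a secreted growth factor of the neurotrophin family, and Pde4d, which encodes a phosphodiesterase that degrades cyclic AMP. Many promoters of vertebrate genes lie in stretches rich in the dinucleotide CG (CpG), which is scarce in the rest of the genome.

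Bdnf shows starts that lead to the same coding sequence. Its locus (XLOC_016499, plus strand of chromosome 2, bases 109514857 to 109567204) had 10 coding transcripts in 6 TSS groups, and all 6 first exons were spliced to the same second exon. Upstream of that exon, the groups began 0, 1.197, 2.394, 17.736, 18.863 and 19.769 kb from the most upstream start, so that 3 starts lay together at each end of a region of 19.769 kb. The 100 bases before each start are printed to show that the starts have unlike upstream sequence; none of these bases lies in an exon of the locus, and each CG is in capitals.
Bdnf start 1, chr2:109514757-109514856, plus strand: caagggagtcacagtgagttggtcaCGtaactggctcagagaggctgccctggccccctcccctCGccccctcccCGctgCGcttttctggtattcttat
Bdnf start 2, chr2:109515954-109516053, plus strand: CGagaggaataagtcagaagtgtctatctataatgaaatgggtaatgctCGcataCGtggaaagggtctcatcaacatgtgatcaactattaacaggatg
Bdnf start 3, chr2:109517151-109517250, plus strand: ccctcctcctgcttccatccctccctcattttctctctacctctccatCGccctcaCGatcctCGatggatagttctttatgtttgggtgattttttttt
Bdnf start 4, chr2:109532493-109532592, plus strand: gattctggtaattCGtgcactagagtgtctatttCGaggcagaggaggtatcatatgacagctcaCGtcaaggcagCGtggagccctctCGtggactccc
Bdnf start 5, chr2:109533620-109533719, plus strand: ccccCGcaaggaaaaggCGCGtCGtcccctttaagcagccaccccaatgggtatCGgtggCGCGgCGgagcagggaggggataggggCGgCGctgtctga
Bdnf start 6, chr2:109534526-109534625, plus strand: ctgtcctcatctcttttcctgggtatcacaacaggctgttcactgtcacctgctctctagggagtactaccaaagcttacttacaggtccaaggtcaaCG
The printed stretches held 4, 3, 3, 5, 10 and 1 CG in that order. Over the 300 bases before each start, the GC content was 57%, 41%, 52%, 44%, 65% and 58%. The fifth start alone of the 6 was CpG-rich, a term used here for a window of 300 bases with at least 50% GC and a ratio of observed to expected CpG of at least 0.6, and its ratio was 0.715.

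The transcripts of Bdnf used 2 annotated start codons, printed with 12 bases on each side and the codon in capitals. The first codon served the 1 transcript of the most upstream group, and the second served the other 9 transcripts in 5 groups, which shared 1 protein identifier.
Bdnf start codon 1, chr2:109515482-109515508, plus strand: agcaaagccacaATGgtgagtagcaat
Bdnf start codon 2, chr2:109563548-109563574, plus strand: gtgagaagagtgATGaccatccttttc
The second codon lies downstream of all 6 starts.

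Pde4d is the contrasting case, in which each TSS group with an annotated start codon, 8 of 11, had a codon of its own. Its locus (XLOC_008012, plus strand of chromosome 13, bases 109444371 to 110743669) had 12 coding transcripts in 11 TSS groups with 12 protein identifiers, and no identifier was shared between groups. The starts were spread over 1281149 bases, and 10 of the 11 lay beyond the most upstream annotated start codon. Its 8 annotated start codons, each used by 1 TSS group, are printed in the same way.
Pde4d start codon 1, chr13:109650348-109650374, plus strand: gagagccgcaccATGgagagggacact
Pde4d start codon 2, chr13:109906823-109906849, plus strand: gagccggccaggATGgaggcagagggc
Pde4d start codon 3, chr13:110232396-110232422, plus strand: tatccatgatcgATGctcaaaccagag
Pde4d start codon 4, chr13:110371770-110371796, plus strand: atttgggatacaATGagtctgccaacc
Pde4d start codon 5, chr13:110476356-110476382, plus strand: cccctcttcaaaATGagcattataatg
Pde4d start codon 6, chr13:110693637-110693663, plus strand: gggccctgcaatATGaaggagcagccc
Pde4d start codon 7, chr13:110715468-110715494, plus strand: ataaggcaggatATGtcaaaggtaaga
Pde4d start codon 8, chr13:110717421-110717447, plus strand: aatctatcaaaaATGcctgaagcaaac
Of its 11 groups, 6 had a leader before an annotated start codon, 2 began at the start codon itself and 3 consisted of transcripts whose start the annotation marks as not found.

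Gnas, an imprinted locus that encodes the stimulatory G protein alpha subunit and other proteins, lay between these patterns. The locus (XLOC_017143, plus strand of chromosome 2, bases 174109821 to 174172245) had 7 TSS groups, 11 protein identifiers and 4 annotated start codons, and its starts spanned 45.967 kb.
Gnas start codon 1, chr2:174110163-174110189, plus strand: gcacctaagagaATGgatcgcaggtcc
Gnas start codon 2, chr2:174123351-174123377, plus strand: cgccaccgtgttATGggcatgttcaac
Gnas start codon 3, chr2:174124260-174124286, plus strand: gacagccccccgATGgagatcaccaga
Gnas start codon 4, chr2:174155785-174155811, plus strand: cccgccgccgccATGggctgcctcggc
The fourth codon was shared by the 3 most downstream groups, which began 43.448, 45.686 and 45.967 kb from the first start. The 2 codons before it belonged to 1 group, whose 4 transcripts each had their own protein identifier, and 2 further groups consisted of transcripts with no start found. Of the 7 starts of Gnas, 6 were CpG-rich, compared with 1 of 6 at Bdnf.

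The number of TSS groups fell off steeply among coding loci. There were 705 loci with exactly 4 groups, just outside the rule, and 356 with exactly 5, just inside it. A further 145 loci had 6 groups, 64 had 7, 53 had 8, 18 had 9, 15 had 10 and 8 had 11. Only 5 loci had 12 or more: Ctbp2 and Fgfr2, joined in 1 locus, with 18 groups, Plec and Parp10, likewise joined, with 16, Sorbs2 with 13, and R3hdm2 and Pax6 with 12 each. The 8 loci with 11 groups ranged in span from 16248 bases at Lasp1 to 1281149 at Pde4d, and included Synj2, a phosphatase of membrane inositol lipids, over 83796 bases and Tcfeb, a transcription factor of lysosome genes, over 49125.

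**Figure D1:**
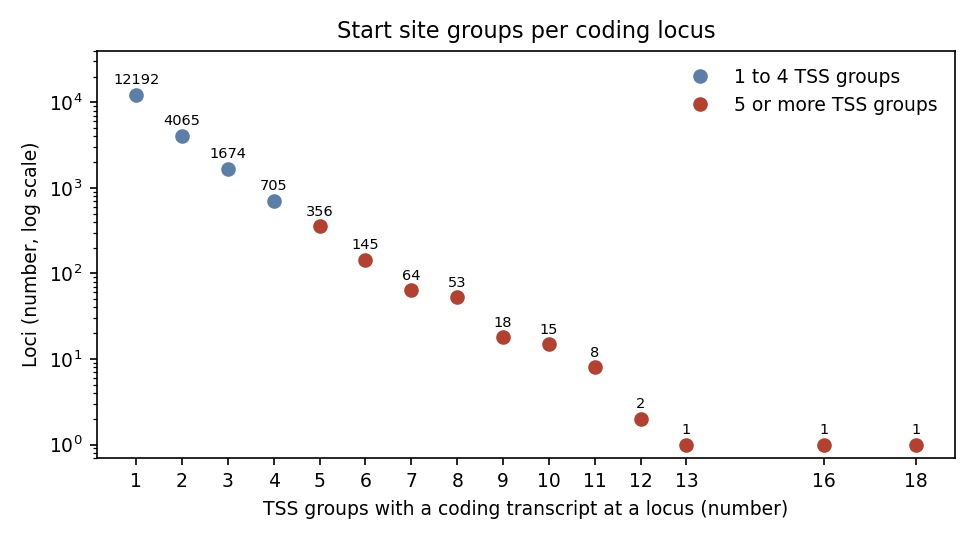
Number of coding loci (vertical axis, log scale) by the number of TSS groups that hold a coding transcript (horizontal axis), with loci inside the rule in red and other loci in blue. The count fell from 12192 loci with 1 group to 356 with 5 and to a single locus at each of 13, 16 and 18 groups.

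Part of this number came from transcripts whose 5′ end is not known. In GENCODE M1, 756 of the 3993 TSS groups (18.9%) consisted only of transcripts marked as having no start found, compared with 10.6% of the groups of loci with 2 to 4 groups and 0.755% of those of loci with 1 group. Among later starts alone, such groups made up 22.5% at members and 17.3% at loci with 2 to 4 groups. Loci with exactly 4 groups were closer to the members, at 15.7% of all groups and 20.8% of later starts. With such transcripts left out, 413 of the 664 loci (62.2%) still had 5 or more groups, and 341 (51.4%) had 5 or more groups with a leader before an annotated start codon. All 6 groups of Bdnf and all 11 of Lasp1, which encodes an actin-binding protein with LIM and SH3 domains, had such a leader. By contrast, Macf1, a giant linker of actin and microtubules, had 10 groups of which 4 had a leader and 5 had no start found. Groups with a leader made up 3005 of the members' groups (75.3%), 80.9% of those of loci with 2 to 4 groups and 88.5% of those of loci with 1. Among later starts alone the shares were 71.0% at members and 70.7% at loci with 2 to 4 groups. Models of manual (HAVANA) origin were present in 91.6% of the groups of members, 77.2% of those of loci with 2 to 4 groups and 52.3% of those of loci with 1. At loci with exactly 4 groups the share was 86.3%. The part of incomplete or manual models in the number of groups was not tested.

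The span from the most upstream to the most downstream start had a median of 40588 bases over the 664 loci, with quartiles at 12564 and 117629 bases. It ranged from 561 to 2943767 bases. The median was 4477 bases in loci with 2 to 4 groups, 22126 in loci with exactly 4 and 27662 in loci with exactly 5. A locus with more groups has more starts to spread, so a larger span follows in part from the rule. The span covered a median of 70.3% of the length of the locus, compared with 22.9% in loci with 2 to 4 groups and 53.8% in those with exactly 4. The loci themselves were long, with a median of 68009 bases against 31082 in loci with 2 to 4 groups and 13915 in loci with 1.

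Span and length were ranked alike among the members (Spearman's rank correlation of 0.914, n = 664 loci), while span and the number of groups were only weakly related (rank correlation of 0.230). Both are given as descriptions, since span is a part of length. Spans over 100 kb were found at 192 members (28.9%) and at 7.31% of the loci with 2 to 4 groups. Spans under 5 kb were found at 75 members (11.3%) and at 51.5% of the loci with 2 to 4 groups. At 7 members all starts lay within 1 kb.

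A span over 1 Mb was found at 9 members, and 8 of these carried a single gene name. They were Ptprd, a receptor tyrosine phosphatase of synapses, with 7 groups over 2078561 bases, Nrxn3, a presynaptic neurexin, with 6 over 1598834, and Dlg2, a postsynaptic scaffold, with 8 over 1564292. Pcdh15, a protocadherin of hair cells, had 5 groups over 1521854 bases and Magi2, another scaffold, had 5 over 1475231. Pde4d, Kcnip4, a subunit of potassium channels, and Auts2 completed the list at 1281149, 1041998 and 1008947 bases. Dab1, the adaptor of the reelin pathway, and Sntg1, a syntrophin, came next with 985631 and 829358 bases.

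The spread within these long loci was uneven. The 6 later starts of Ptprd all lay in the last part of its span, from 1762229 to 2078561 bases beyond the first start, so that 1 gap made up most of the distance. At Pcdh15 the median gap was 339398 bases, and at Sorbs2, an adaptor of the actin cytoskeleton with 13 groups over 267874 bases, it was 1953 bases. Pax6, the transcription factor of eye and brain development, packed 12 groups into 13741 bases with a median gap of 415 bases.

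The most compact members were Il15ra, the receptor alpha chain of interleukin 15, with 5 starts in 561 bases, Atp5c1, a subunit of the mitochondrial ATP synthase, with 5 in 651, Tmem191c with 5 in 670, Rfx5, a regulator of MHC class II genes, with 5 in 688, and Doc2a, a calcium sensor of vesicle release, with 5 in 839. At Il15ra the starts lay 0, 156, 265, 425 and 561 bases from the first, and the last began at a start codon.

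**Figure D2:**
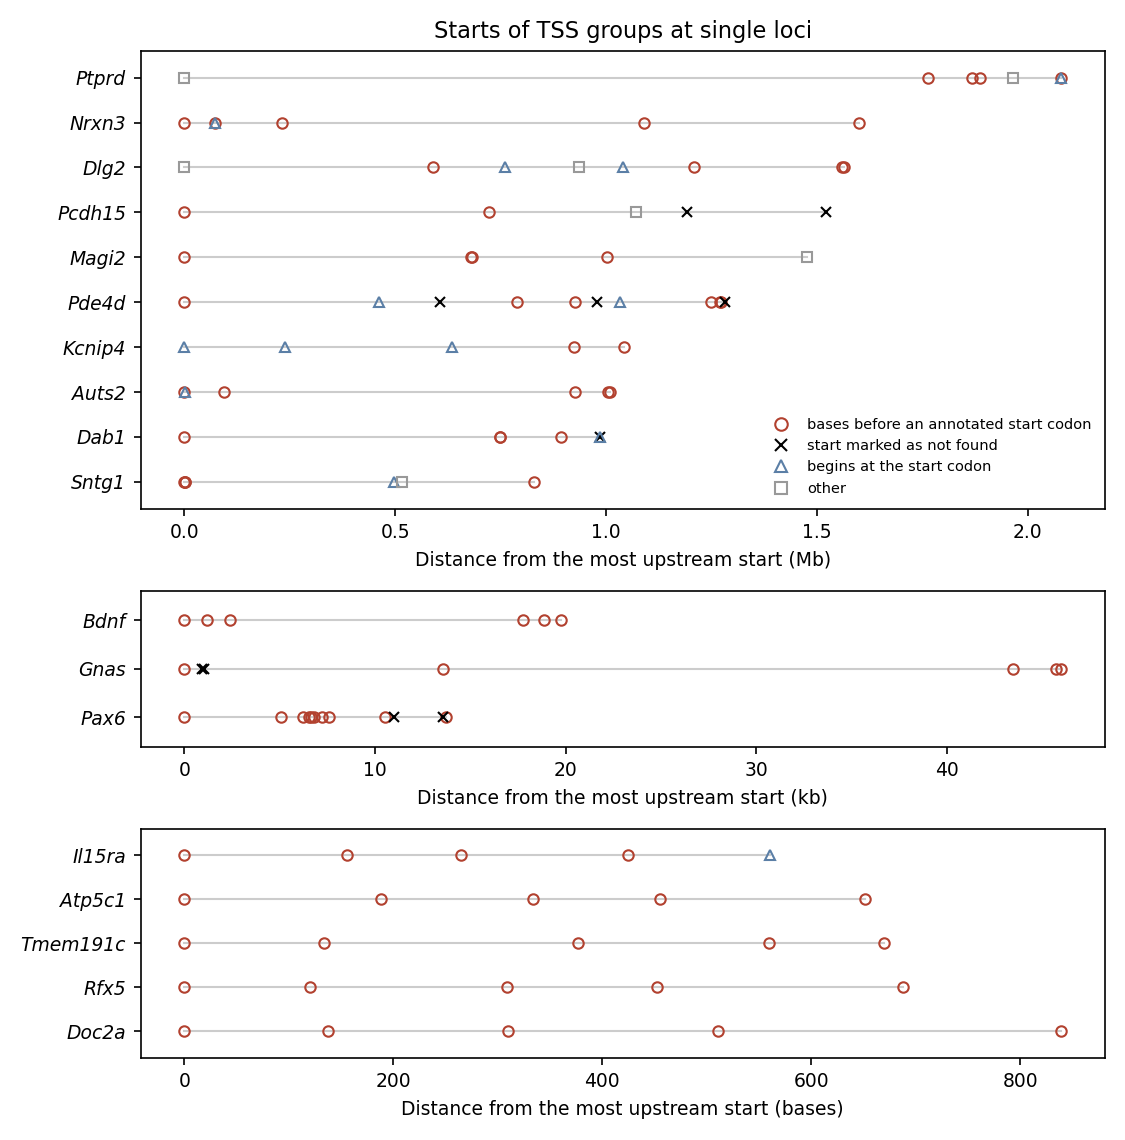
Starts of TSS groups at the 10 single-name members with the largest spans (top, Mb), at Bdnf, Gnas and Pax6 (middle, kb) and at the 5 with the smallest spans (bottom, bases), each as the distance from the most upstream start. Symbols give the kind of 5′ end, with red circles for a leader before an annotated start codon black crosses for a start marked as not found, blue triangles for a transcript that begins at its start codon and grey squares for all others. The later starts of Ptprd crowd at the far end of its 2078561 bases, and those of Bdnf form 2 clusters of 3.

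The 3329 gaps between neighbours had a median of 2238 bases, with quartiles at 349 and 14835, compared with 1752 bases, 310 and 14044 at loci with 2 to 4 groups. Gaps under 1 kb made up 1361 (40.9%) of those of the members and 44.0% of the others, and gaps over 100 kb made up 167 (5.02%) and 4.68%. With leader groups alone, the median gap was 1123 bases in loci with 5 or more such groups and 844 in loci with 2 to 4, and without transcripts marked as start not found it was 1322 and 1087. The largest gap, 2797 kb, was within the locus of Ctbp2 and Fgfr2. Inside single groups, starts differed by at most 194 bases, and in 78.4% of the members' groups all transcripts began at the same base.

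**Figure D3:**
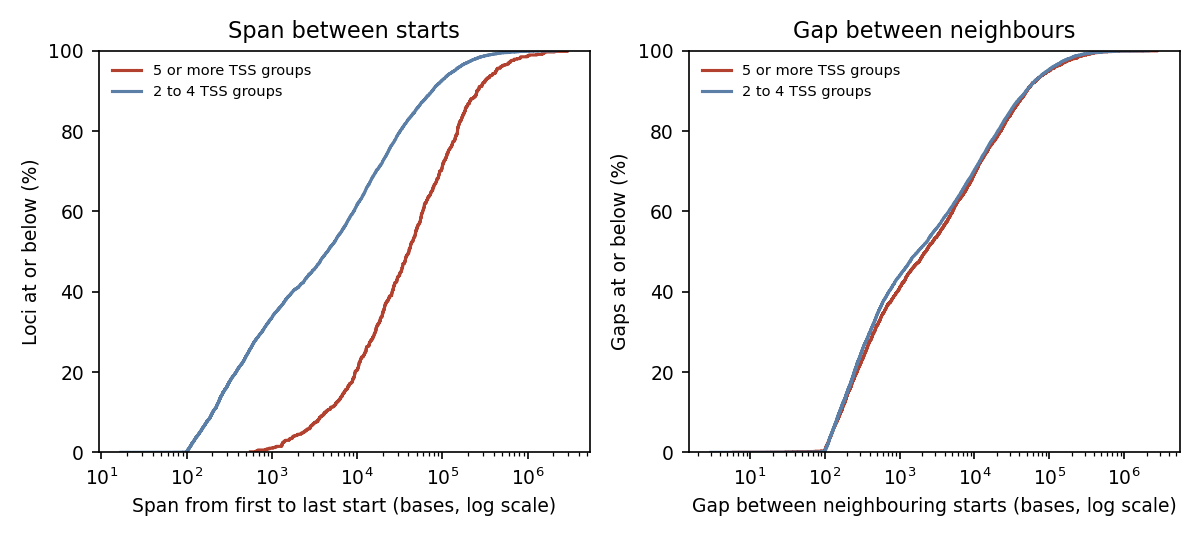
Cumulative share of loci by span from first to last start (left) and of gaps by distance between neighbouring starts (right), in bases on a log scale, for members (red) and loci with 2 to 4 TSS groups (blue). The spans are separated, with medians of 40588 and 4477 bases, and the 2 curves of gaps lie nearly on each other, with medians of 2238 and 1752 bases.

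Within the loci, the 3993 starts lay mostly inside the region already covered by other transcripts. An intron of another group held 1809 of them (45.3%), a later exon 835 (20.9%) and a first exon 665 (16.7%), and 684 (17.1%) lay outside, 664 of which were the most upstream starts themselves. The most upstream start is outside by definition, and among later starts alone the share in introns was 54.3% at members and 53.9% at loci with 2 to 4 groups. Later exons held 25.1% and 22.5% of these later starts.

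After the first exon, the transcripts converged. In 3599 of the groups (90.1%), some transcript was spliced onto an acceptor site that another group of the locus used too, compared with 76.3% at loci with 2 to 4 groups and 86.0% at loci with exactly 4. At 437 members (65.8%), 3 or more groups shared 1 second exon, and at 36 members all groups did, Bdnf among them. Loci with more groups have more partners to share with, so the first 2 of these measures can rise by construction. The share of groups with a common acceptor was 90.2% at loci with exactly 5 groups and 88.3% at those with exactly 6. A second exon common to all groups was found at 2338 of the 6444 loci with 2 to 4 groups and at 90 of the 705 with exactly 4.

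The number of protein identifiers in a TSS group was similar whatever the number of groups at the locus. It averaged 1.45 (SD 1.07, over 3993 groups) at the members, 1.42 (SD 0.948) at loci with 2 to 4 groups and 1.41 (SD 0.838) at loci with 1. A single identifier was held by 3006 of the members' groups (75.3%), 2 by 613, 3 by 190 and 5 or more by 97 (2.43%). Shares of groups with 5 or more were 1.68% and 1.13% in the other classes. Per locus, the members had a median of 7 protein identifiers and 8 coding transcripts, and the number of identifiers ranged from 1 to 35.

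The most identifiers in a single TSS group were 14. Lphn3, an adhesion G protein-coupled receptor also called latrophilin, and Fgfr2, a receptor of fibroblast growth factors, each had a group with that number. The 14 of Lphn3 all used 1 start codon, as did every group of that locus with an annotated start codon. Pcdh15 had 11 in 1 group, Agtpbp1, an enzyme that shortens glutamate side chains on tubulin, had 10, and Camk2d, Pard3 and Cdkl3 were among the genes with 9. Cpne1, Nfs1 and Rbm12, joined in 1 locus, had 12.

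Few identifiers recurred across starts. Of the 5246 identifiers of the members, 384 (7.32%) were found under 2 or more TSS groups, close to the 7.55% of loci with 2 to 4 groups, and 560 groups (14.0%) had no identifier of their own. Of the 890 members' transcripts marked as start not found, 2 (0.225%) carried an identifier present under another group too, compared with 1001 of the 5064 others (19.8%). With the marked transcripts left out and the rule applied anew, 413 loci met it, and the share of shared identifiers there was 10.1%. That value and the 7.32% are therefore from different sets of loci.

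At a few loci, 1 protein identifier was found under most starts. Eif5a, a translation factor, had 1 identifier in all 6 of its groups, and Bdnf had 1 identifier in 5 of 6. Morf4l2, a chromatin protein, also had 1 in 5 of 6, but it had 7 identifiers in all and 2 groups without one of their own. Agpat3, an acyltransferase of phospholipid synthesis, had 1 in 5 of 8. Gngt2, a G protein gamma subunit of cone photoreceptors, was the single member with 1 protein identifier in all, shared by its 5 groups over 6393 bases.

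Many starts led to the same start codon. The members used a median of 2 annotated start codons per locus and at most 11. A single start codon served 185 loci (27.9%), compared with 56.7% of loci with 2 to 4 groups and 42.4% of loci with exactly 4. A further 187 members had 2, 292 had 3 or more and 60 had 5 or more. Of the 705 loci with exactly 4 groups, 186 had 3 or more and 15 had 5 or more. A locus with more groups has more chances to hold a further codon. Among members with a single gene name 32.0% had 1 start codon, and of the 85 with several names 0 had. Of the 3166 groups with an annotated start codon, 2378 (75.1%) used a codon that another group used too. The share was 61.4% at loci with 2 to 4 groups and 72.9% at loci with exactly 4. Groups with more partners have more to share with, so this share can rise with the number of groups by construction. Conversely, 1986 of the starts (49.7%) lay beyond the first start codon of the locus, where a transcript cannot contain that codon, compared with 28.8% at loci with 2 to 4 groups. The most upstream start rarely lies there and weighs more where groups are few, and among later starts alone the shares were 59.7% at members, 48.3% at loci with 2 to 4 groups and 52.8% at loci with exactly 4. Over all starts the share was 68.7% at members with several gene names, where neighbouring genes are joined, and 46.8% at members with a single name. The part of joined genes in these shares was not tested. A single stop codon was found at 177 loci (26.7%), compared with 52.0% of the loci with 2 to 4 groups and 34.3% of those with exactly 4.

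**Figure D4:**
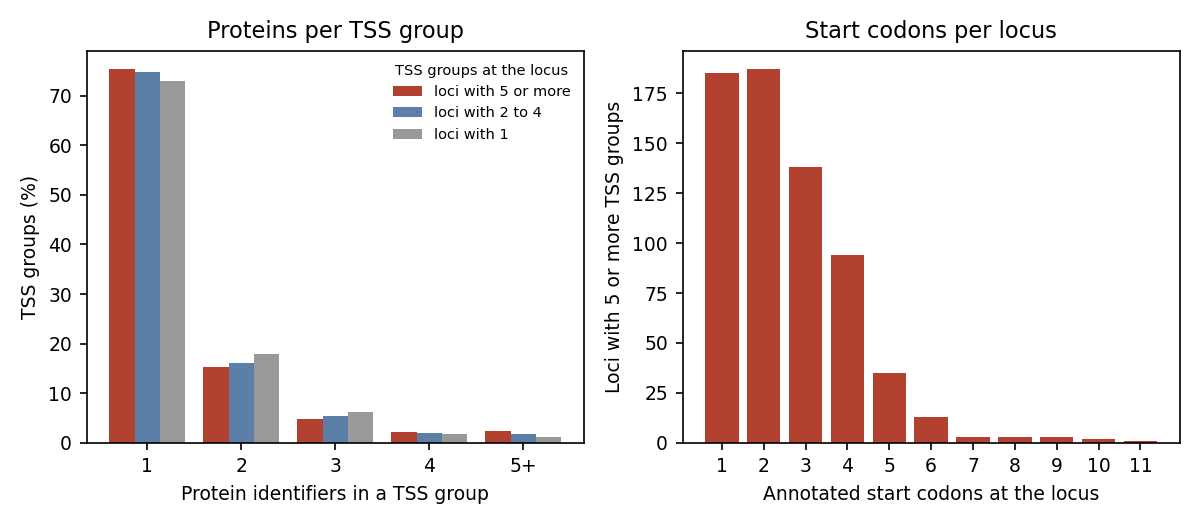
Left, share of TSS groups (percent) by the number of protein identifiers they hold, for members (red), loci with 2 to 4 groups (blue) and loci with 1 (grey), where 75.3%, 74.8% and 73.0% hold 1. Right, number of members by their number of annotated start codons, from 185 loci with 1 to 1 locus with 11.

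The extremes among the members differed in kind. The joined locus of Plec, the cytoskeletal linker plectin, and Parp10 had 11 start codons among 16 groups, with 15 starts beyond the first codon. Plec had 14 of these groups and Parp10 had 2, and the codons were counted over both genes. Pde4d had 8 start codons, Crem, a transcription factor of the cyclic AMP pathway, had 8 among 9 groups, and Mcf2l, a guanine nucleotide exchange factor, had 7 among 10. Kalrn, the synaptic exchange factor kalirin, had 9 groups, 16 identifiers and 6 start codons over 477504 bases. At the other end, Lphn3 had 1 start codon with 6 groups, and Fgfr1 and Nr3c1, which encodes the glucocorticoid receptor, had 1 with 5 groups each. Wnk1, a kinase of ion transport, also had 1 annotated start codon, but 6 of its 8 groups had no start found. Pax6 used 3 start codons for its 12 groups, and 2 of its starts lay beyond the first codon.

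Compact and extended members differed in these measures in a graded way. Among the 75 members with a span under 5 kb, 45.3% used 1 start codon, 28.1% of the groups lay beyond the first start codon and 36.6% shared an identifier with another group. Among the 192 with a span over 100 kb, the shares were 20.3%, 58.7% and 15.1%. The groups with a leader fell from 90.5% to 70.3% between the same classes. Of the 85 members with several gene names, 0 had a span under 5 kb and 18 had a span over 100 kb. The part of incomplete models, of joined genes and of the span itself in the differences was not tested.

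Base composition set the most upstream starts apart from the later ones. Windows of 300 bases before the start were CpG-rich at 305 of the 664 most upstream starts (45.9%) and at 881 of the 3329 later ones (26.5%). In loci with 2 to 4 groups the shares were 45.4% and 32.9%, and in loci with 1 group 37.1%. Among later starts the share followed their place, with 59.5% of those in a first exon of another group, 24.9% of those in an intron and 3.23% of those in a later exon. It was 33.5% for later starts with a leader and 9.23% for those without. Windows of neighbouring starts under 300 bases apart overlap, and windows of starts in exons hold exon sequence.

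**Figure D5:**
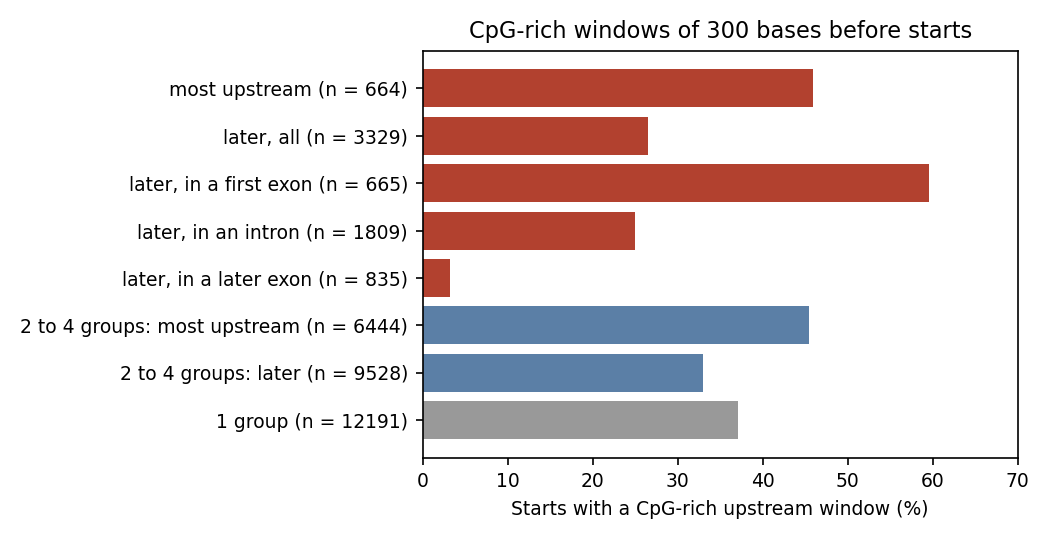
Share of starts (percent) whose 300 bases upstream are CpG-rich, for members (red, by the place of the start), loci with 2 to 4 TSS groups (blue) and loci with 1 (grey), with the number of starts in brackets. The share was 59.5% for later starts of members in a first exon and 3.23% for those in a later exon; the 20 later starts outside other transcripts are not drawn.

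Per locus, 118 members (17.8%) had no CpG-rich start, 180 had 1 and 366 had 2 or more, and at 6 members all starts were CpG-rich. These counts were made for members only and depend on the number of starts at a locus, so they set the members apart from no other class. Eif5a had 5 CpG-rich starts of 6. A TATA box, searched as TATAAA on both strands in the 40 bases before a start, was found at 54 of the members' 3993 starts (1.35%), compared with 2.45% of all 32156 coding starts and 3.99% of those of loci with 1 group. Loci with 2 to 4 groups were closer to the members. The shares were 0.904% at members and 1.54% at these loci for most upstream starts, and 1.44% and 1.56% for later starts. The GC box, searched as GGGCGG on both strands in 300 bases, was found at 34.5% of the members' starts and at 40.8% of all coding starts, of which fewer are later starts. Of most upstream starts 51.4% had it at members and 49.4% at loci with 2 to 4 groups. Among later starts the shares were 31.2% and 35.1%. Such matches describe letters, not bound sites.

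Lists of genes written from textbook knowledge held 298 symbols, of which 285 were found among the coding loci and 70 (24.6%) lay at members, beside 2.99% of all coding loci. The lists were written with earlier results of these data known and favour well-studied genes with known alternative promoters, so no more than the counts can be read from them.

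Scaffolds and adhesion proteins of synapses had the highest share, with 10 of 26 genes at members, among them Dlg1, Dlg2, Dlg4, Dlgap1, Dlgap4, Homer1, Nrxn3, Grip1 and Magi2. Dlg4, which encodes PSD-95, had 7 groups, 7 identifiers and 5 start codons in 12732 bases, while its relative Dlg2 had 8 groups and 6 start codons over 1564292 bases. Of the cytoskeletal linkers and microtubule proteins 9 of 24 were at members, among them Macf1, Ank1 and Ank2 (ankyrins), and Tpm1 and Tpm3 (tropomyosins). Tpm1 had 16 identifiers in 5 groups over 5673 bases, 9 of them in 1 group.

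The transcription factors were listed for having alternative promoters in textbooks, so their share is partly set by the choice, and 12 of 34 were at members, including Pax6, Runx2, Hnf4a, Tcf4, Tcf7l2, Foxp1 and Foxp2. Hnf4a, a nuclear receptor of liver, had 5 groups and 4 start codons over 43275 bases, and Foxp2, a forkhead factor of striatum and other regions, had 8 groups and 2 start codons over 475340 bases. Growth factors and their receptors held 7 of 23, namely Bdnf, Igf1, Igf2, Fgf1, Fgf13, Fgfr1 and Fgfr2. Igf1 and Igf2, the insulin-like growth factors, had 7 and 5 groups, and 1 identifier of Igf2 was found under 4 of its 5 groups.

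Splicing regulators held 6 of 21: Rbfox3, Celf1, Celf2, Elavl2, Elavl4 and Ptbp1. Rbfox1, another member of the RBFOX family of splicing factors, fell outside the rule with 3 groups. Of the cyclic nucleotide phosphodiesterases 4 of 20 were at members. Pde4d was joined there by Pde4b, with 7 groups and 6 start codons, Pde10a, an enzyme of striatal neurons, with 8 and 7, and Pde8b with 6 and 3. Imprinted genes held 5 of 22, among which Gnas, Grb10, Igf2 and Plagl1 had 5 or more groups under their own name and Commd1 did not. Calcium, calmodulin and potassium channel genes held 6 of 29.

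Of 28 protein kinases and adaptors 3 were at members (10.7%), Mark2, Wnk1 and Sgk1. Of 32 neurotransmitter receptors 1 was (3.13%, near the 2.99% of all coding loci), namely Gria3, a subunit of AMPA receptors, with 5 starts in 1612 bases of a locus of 277474 bases. Some long genes known for several promoters were not members: Dmd, which encodes dystrophin, had 3 groups over 2099510 bases. Of 9 genes taken from the text and supplements of the study, Kalrn was a member, while Zfp26, Ece2, Celsr2 and Efnb2 had 3 groups each, Kif23 had 2, and App, Rps6kb2 and Dvl1 had 1.

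A locus in these models joins transcripts that overlap, so that neighbouring genes can share 1 locus. More than 1 gene name was found at 85 members (12.8%), compared with 2.95% of the loci with 2 to 4 groups and 7.66% of those with exactly 4. At 20 of the 85, at least 1 name had 5 or more groups by itself, and at the other 65 no name did. In 16 of the 85, a transcript was tagged in GENCODE M1 as a readthrough between genes. With loci replaced by gene names, 603 names had 5 or more groups.

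The longest of these joined loci was that of Ctbp2, a transcriptional corepressor that also yields the ribbon synapse protein RIBEYE, and Fgfr2. It had 39 coding transcripts and 35 identifiers, with 13 groups of Ctbp2 and 6 of Fgfr2, and 1 of its 18 groups held transcripts of both names. The starts of Ctbp2 spanned 109.106 kb, and the gap of 2797 kb separated them from the other starts of Fgfr2. The locus with most names was that of Ugt1a, the family of glucuronosyltransferases that share their later exons, with 9 names, 11 groups and 10 start codons over 156571 bases, where 9 groups shared 1 second exon. At that locus the largest number of groups under 1 name was 3.

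Members were found on every chromosome with TSS groups except Y, which had 14 coding loci of that kind. By number, chromosome 2 led with 73, followed by chromosome 5 with 61, and by share of the coding loci with a TSS group, chromosome 5 led with 5.09%. Chromosome 12 had the lowest share above 0, with 12 members (1.74%).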

How the data were processed

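For a series with RNA-seq of 12 pools, 1 set of gene models of the whole series was analysed, and the deposited values are start and end coordinates of exons, with identifiers of locus, TSS group, protein, gene name and reference transcript. TopHat, Cufflinks, Cuffdiff and CASAVA are the tools listed by the submitters, with versions not given in the sources used here, and the reference was Ensembl NCBIM37. No counts or depths were analysed here. Of 87740 transcripts, 50689 were coding, and 3104 of these had 1 exon and no TSS group. Each group was placed at its most upstream start. Coding transcripts were matched by identifier to GENCODE M1 (47388 of 47585, 99.6%), which gave start codons and marks of incomplete 5′ ends, and sequence was read from the NCBIM37 genome. Members and gene lists were chosen with earlier results of these data known. The count of 1 list and the values of 1 gene are not reported here. Named genes were those with most groups, the largest and smallest spans, most identifiers in 1 group, 1 identifier in most groups, members on the lists, and genes from the study's text and supplements. Steps were tested on simulated models. Python 3.11.15, numpy 2.4.6, pandas 2.3.3, scipy 1.17.1, statsmodels 0.14.6 and matplotlib 3.10.9 were used.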

Additional observations from a re-analysis of the deposited data

How the results depend on the processing

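Of 48 alternatives computed, 28 stayed within the limit, which was 1.5-fold for counts and sizes and the 95% Wilson interval for shares, and 20 moved. The member count of 664 became 1369 with 4 or more groups, 308 with 6 or more, 217 with starts within 1000 bases merged, and 2423 with all transcripts that have a TSS group. It became 341 with groups that have a leader and 413 without transcripts marked as start not found, both chosen after seeing the data. With starts within 1000 bases merged, the median span was 97957 bases and the median gap 11367 bases. The median gap was 1123 bases with leader groups and 1322 without starts not found. Protein identifiers per TSS group averaged 0.808 over all transcripts. Identifiers shared between groups made up 6.53% with 6 or more groups, 11.7% with leader groups and 10.1% without starts not found. Loci with more than 1 gene name made up 10.2% with 4 or more groups. With 150 bases on each side of the start, CpG-rich windows made up 29.4% of later and 57.4% of most upstream starts. Gaps under 1 kb made up 37.8% with 6 or more groups, 48.3% with leader groups and 46.4% without starts not found.

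The models give annotated starts, not starts used in these pools. A locus annotated in more depth can have more of them, and the part of annotation depth in their number was not tested. No paired analysis was possible because the models hold no values of single pools, and leaving out pools was not possible for the same reason. Multi-name loci join neighbouring genes, and single-exon coding transcripts have no TSS group and were not counted.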

Other observations

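Noncoding transcripts lay at 580 of the 664 members (87.3%), compared with 59.6% of loci with 2 to 4 groups and 27.4% of loci with 1. At the members there were 2448 transcripts without a protein identifier, and 516 of the loci had 1432 further TSS groups with no coding transcript, with a median of 2 and at most 9 per locus. Groups whose coding transcripts were all annotated as targets of nonsense-mediated decay, the pathway that degrades messages with a premature stop, numbered 273 (6.84%) at members, compared with 4.53% at loci with 2 to 4 groups and 0.123% at loci with 1. Among later starts alone the shares were 7.99% at members, 7.04% at loci with 2 to 4 groups and 7.99% at loci with exactly 4.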
